A study of Mus musculus with 9 samples.

Results

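The collagen and laminin genes of the dorsal root ganglion (DRG) are described here, in ganglia dissected from mouse embryos at embryonic stage E18.5. They were taken from the deposited table by name: every row whose symbol is Col, a number, a and a number, or Lama, Lamb or Lamc with a number from 1 to 5. This gave 55 genes of the 55247 rows of the table, 44 collagens and 11 laminins. Of these, 48 (38 collagens and 10 laminins) reached 100 counts in 1 or more libraries and were tested among 13200 genes, and 39 reached it in all 9 libraries. Each of 3 genotypes gave 3 libraries: wild-type (WT) embryos, the Cre control Isl1Cre/+, and the mutant, Isl1Cre/+::Meis2LoxP/LoxP. The Isl1Cre allele is a knock-in, so both Isl1Cre/+ and mutant embryos carry the recombinase and a single intact copy of Isl1, a transcription factor of sensory neurons, whereas WT embryos lack the Cre allele. In the mutant, the recombinase removes the first homeodomain exon of Meis2 from cells that have expressed Isl1, so cells of the ganglion that never expressed Isl1 keep the gene. The reporting checklist of the study describes its replicates as biological, without naming the experiment. The embryo or litter behind each library is not given in the sources used here, so p-values measure the spread between these libraries, which may in part be technical.

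Collagens and laminins build the extracellular matrix. Fibrillar collagens form the cables of connective tissue, fibril-associated collagens decorate them, collagen VI forms beaded filaments around cells, and collagens II, IX, X and XI are the collagens of cartilage. Basement membranes rest on a laminin network, assembled from trimers of an alpha, a beta and a gamma chain, and on a network of collagen IV. In a peripheral nerve or ganglion, Schwann and satellite glial cells and blood vessels lie on such membranes, and fibroblasts of the capsule and of the nerve sheath make most of the fibrillar collagen. Cartilage collagens are known mainly from chondrocytes, and the vertebrae develop beside the ganglia.

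The libraries held 23854607 to 29103444 counts. Levels are given as counts per 1000000 counts (cpm). Meis2 itself was at 40.7 to 41.2 cpm in the mutant libraries, at 95.4 to 110 cpm in WT and at 89.5 to 102 cpm in Isl1Cre/+, so its level followed the labels. Isl1 was at 227 to 284 cpm in WT and at 165 to 216 cpm in the other two genotypes. All 11 markers of sensory neurons and all 10 of Schwann and satellite glia were detected in every library, whereas 6 of 7 spinal cord markers stayed under 100 counts. WT library 1 and mutant library 2 had the lowest median rank correlation with the other libraries, 0.981 and 0.979, against 0.991 to 0.995 for the others. Markers of tissue around the ganglion varied widely between libraries of a genotype. Summed skeletal muscle markers ranged from 119 to 917 cpm in WT, from 64.9 to 163 cpm in Isl1Cre/+ and from 136 to 2148 cpm in the mutant. Summed markers of meninges and capsule ranged from 507 to 1035, from 352 to 849 and from 437 to 1947 cpm, with the highest sum of each of these 2 lists in mutant library 2.

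Collagens and laminins together took 0.744, 0.670 and 0.853% of all counts in the WT libraries, 0.991, 0.761 and 0.714% in the Isl1Cre/+ libraries, and 0.584, 1.0 and 0.858% in the mutant libraries. Both the lowest and the highest share thus lay within the mutant, and the 3 genotypes overlapped. In bulk ganglia, fewer cells of a type and less RNA per cell cannot be told apart. The mean share was 0.756 ± 0.0923% in WT, 0.822 ± 0.148% in Isl1Cre/+ and 0.816 ± 0.213% in the mutant (SD, n = 3 each). In a two-sided exact permutation test over libraries, p was 0.7 for mutant against WT, 1 for mutant against Isl1Cre/+ and 0.6 for Isl1Cre/+ against WT, where 0.1 is the smallest p that 3 libraries against 3 allow.

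Levels of different genes were compared per exonic kilobase (cpm per kb), with exon lengths from GENCODE M21 on GRCm38. These lengths merge the exons of all annotated transcripts of a gene, so the order depends in part on them. Col1a2 had 12426 exonic bases and Col4a1 7464, and before division by length Col1a2 averaged 999 cpm and Col4a1 683 cpm. Per kilobase, type I and type III collagens came first. Col1a1, the alpha-1 chain of type I collagen, stood at 188 ± 47.5 cpm per kb (SD over 9 libraries), Col3a1 at 109 ± 22.4 and Col1a2 at 80.4 ± 18.6. The main basement membrane chains were of the same order: Col4a1 at 91.5 ± 8.02 cpm per kb, the laminin gamma chain Lamc1 at 67.4 ± 11.4, Col4a2 at 51.6 ± 5.76 and the laminin beta chain Lamb1 at 42.1 ± 6.35. Over libraries Col1a1 ranged from 125 to 243, Col3a1 from 74.7 to 137, Col4a1 from 82.6 to 108, Col1a2 from 55.7 to 113 and Lamc1 from 54.5 to 94.7, so the ranges of neighbours overlapped. Within libraries Col1a1 was above Col3a1 in 9 of 9, Col3a1 above Col4a1 in 7, Col4a1 above Col1a2 in 7 and Col1a2 above Lamc1 in 8. Lamc1 was above Col4a2, and Col4a2 above Lamb1, in 9 of 9. After them came Col6a1, the alpha-1 chain of the beaded filaments, at 36.8 ± 12.7 cpm per kb, and Col28a1, a collagen known from peripheral nerve, at 32.3 ± 2.79.

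Among the laminin alpha chains, which carry most of the receptor-binding sites, Lama4 (27.6 ± 4.12 cpm per kb) and Lama2 (12.2 ± 1.05), the alpha chain of Schwann cell and muscle basement membranes, were the abundant ones. Lama1, Lama3 and Lama5 lay between 0.535 and 1.64 cpm per kb in all libraries, and every one of the 9 values of Lama2 was above them. Lamb1 (37.2 to 58.2 cpm per kb) lay above Lamb2 (9.5 to 19.9) in every library, and Lamc1 lay far above Lamc3, which did not pass 1.37. Lamb3, a beta chain of epithelia, stayed under 100 counts in every library. Fibril-associated collagens were led by Col14a1 (25.8 ± 2.09 cpm per kb), Col12a1 (9.65 ± 5.88) and Col16a1 (5.26 ± 0.777), and transmembrane collagens by Col23a1 (3.69 ± 0.842) and Col25a1 (0.961 ± 0.175). Of the 8 basement membrane collagens, Col18a1, the source of endostatin, ranked after Col4a1 and Col4a2 at 14.0 ± 2.5 cpm per kb, and Col4a3, Col4a4 and Col4a6, which belong to specialised basement membranes, were the 3 lowest of all tested members at 0.290 to 0.434.

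**Figure D1:**
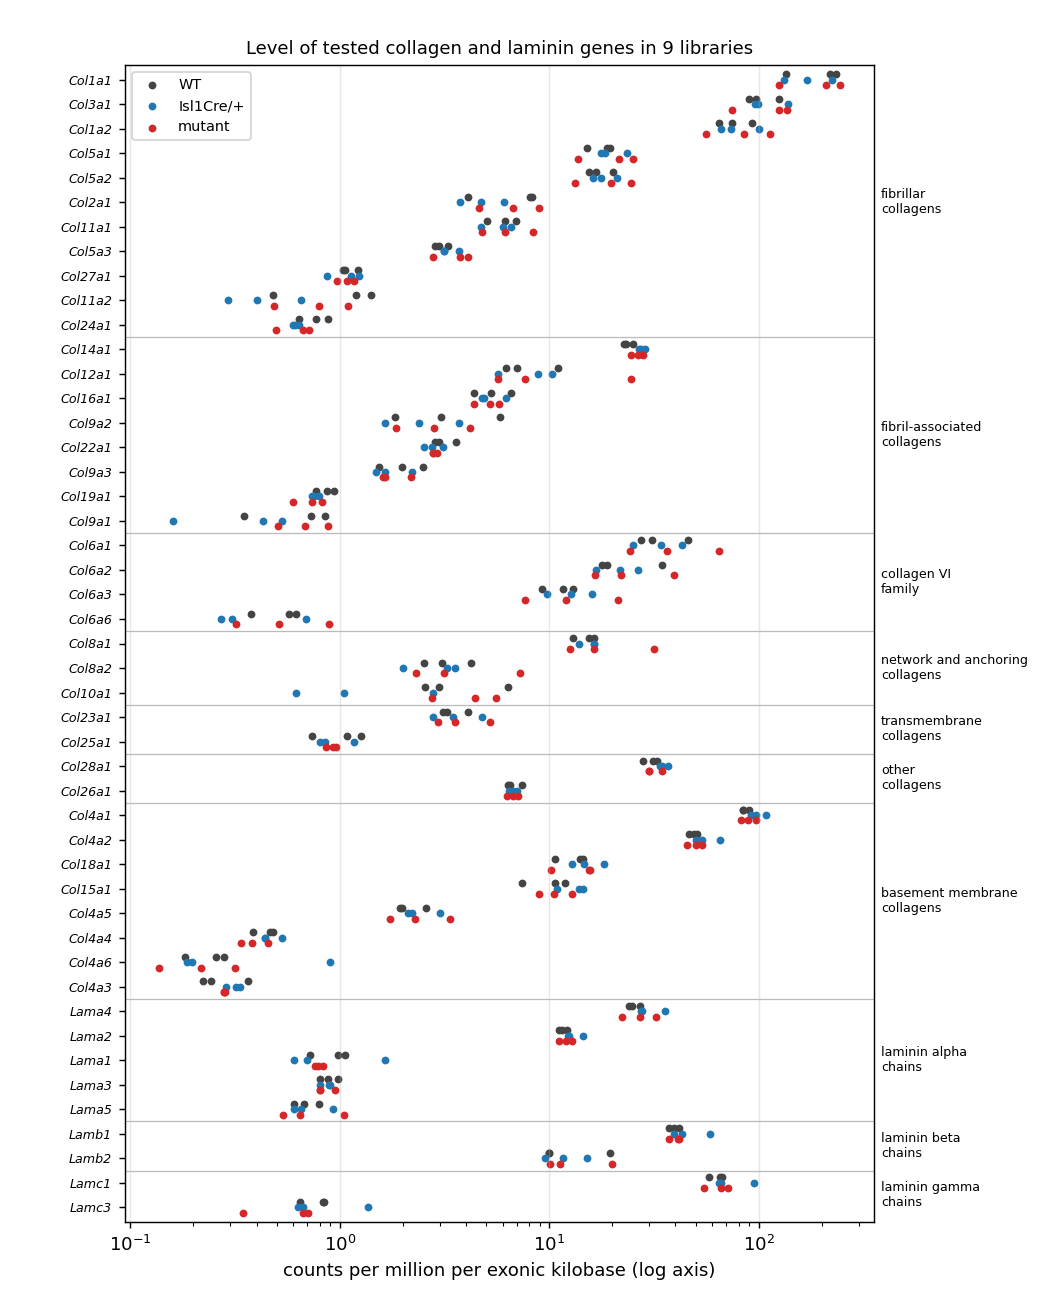
Level of the tested collagen and laminin genes, in cpm per exonic kilobase on a log axis, grouped by role, with 1 point per library coloured by genotype. Levels span from 0.290 (mean of Col4a3) to 188 (mean of Col1a1), and the 3 colours overlap in most rows, with a lone blue point for Col4a6 and a lone red point for Col12a1.

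The 7 members that were not tested were Col13a1 (at most 92 counts), Col20a1 (57), Col6a5 (41), Col7a1 (32), Lamb3 (32), Col6a4 (19) and Col17a1 (14). Just inside the limit were Col4a3, with 103 counts in WT library 2 and 64 to 98 elsewhere, and Col9a1, which reached 114. Col4a6 passed only through Isl1Cre/+ library 1, where it had 210 counts against 29 to 66 in the other 8. No untested member was at 0 in any library.

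The 6 chains of type IV collagen are encoded in 3 head-to-head pairs. Col4a1 and Col4a2 start from opposite strands of chromosome 8, and in RefSeq on GRCm38.p6, as in GENCODE M21, their first exons share 22 bases, chr8:11312805-11312826. These bases are shown because both transcripts begin within them, with the hexamer GGGCGG in capitals, read on the + strand.
Col4a1 and Col4a2 shared start: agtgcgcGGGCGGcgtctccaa
The hexamer on either strand was present within 250 bases before the start in 32.7% of the 32851 RefSeq promoter windows and in 24 of the 44 windows held for 40 of the members. Col4a3 and Col4a4 leave 71 bases between their starts on chromosome 1, and Col4a5 and Col4a6 leave 1308 bases on chromosome X.

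Ratios of partner chains within a library do not depend on how libraries are scaled. Their size depends on the exon lengths used (8326 bases for Col6a2 and 4380 for Col6a1, for example), whereas their spread over libraries does not. The per-kilobase ratio of Col4a1 to Col4a2 was 1.67, 1.81 and 1.83 in the WT libraries, 1.65, 1.83 and 1.82 in those of Isl1Cre/+ and 1.81, 1.77 and 1.80 in those of the mutant. It moved 1.11-fold over the 9 libraries, while Col4a1 itself moved 1.30-fold and Col4a2 1.43-fold. The ratios that moved least after it were those of Col5a1 to Col5a2 (0.971 to 1.13), Lamb1 to Lamc1 (0.581 to 0.683) and Col3a1 to Col1a2 (1.21 to 1.46). Col6a1 to Col6a2, partners in type VI collagen, stayed between 1.33 and 1.66 although each gene moved by 2.38-fold or more. The ratio of Col4a3 to Col4a4, both low in counts, ran from 0.464 to 0.827. The ratio of Col4a5 to Col4a6 was 3.37 in Isl1Cre/+ library 1 and 7.78 to 12.6 in the other 8 libraries.

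Cartilage partners were less even. The alpha-1 to alpha-2 ratio of type IX collagen, Col9a1 to Col9a2, ran from 0.0975 to 0.311, and Col11a2 to Col11a1 from 0.0612 to 0.229. In the latter pair Col11a1 moved 1.77-fold over the libraries and Col11a2 4.81-fold. Both genes encode chains of type XI collagen, but Col11a1 is also made outside cartilage, where it joins type V fibrils.

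**Figure D2:**
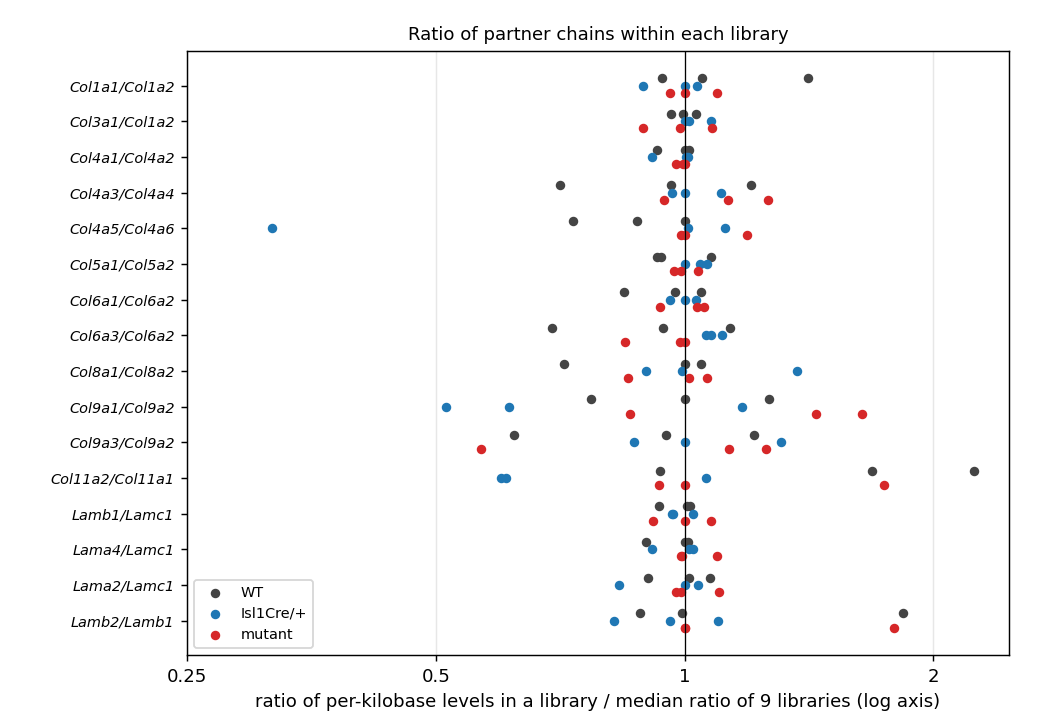
Ratio of per-kilobase levels of 16 pairs of chains in each library, divided by the median ratio of the 9 libraries, on a log axis, with 1 point per library coloured by genotype. Col4a1/Col4a2 stays nearest to 1, Col4a5/Col4a6 drops in 1 Isl1Cre/+ library, and Col9a1/Col9a2 and Col11a2/Col11a1 are spread most widely of the other pairs.

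Collagens and laminins had a wider range between libraries than the median gene. The ratio of the highest to the lowest library, with 0.5 cpm added to each, had a median of 1.84 over the 48 tested members and of 1.34 over all 13200 genes. It was widest for Col10a1 (8.33), the collagen of hypertrophic cartilage, and then for Col4a6 (4.81), Col12a1 (4.29), Col11a2 (4.05) and Col9a1 (3.76). It was narrowest for Col26a1 (1.17), Lama3 (1.2) and Col14a1 (1.26).

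A few libraries held most of the extremes. Mutant library 1 was the lowest of the 9 for 23 of the 48 members (47.9%), against 14.0% of all genes tested, and Isl1Cre/+ library 3 for 14 (29.2%), against 11.3%. Mutant library 2 was the highest for 17 members (35.4%), against 18.3% of all genes, and Isl1Cre/+ library 1 for 14 (29.2%), against 7.98%. Of the 10 tested laminins, 6 were highest in Isl1Cre/+ library 1, 3 in mutant library 2 and 1 in WT library 2. Low and high libraries therefore stood side by side in the same genotype, in the mutant as well as in Isl1Cre/+.

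**Figure D3:**
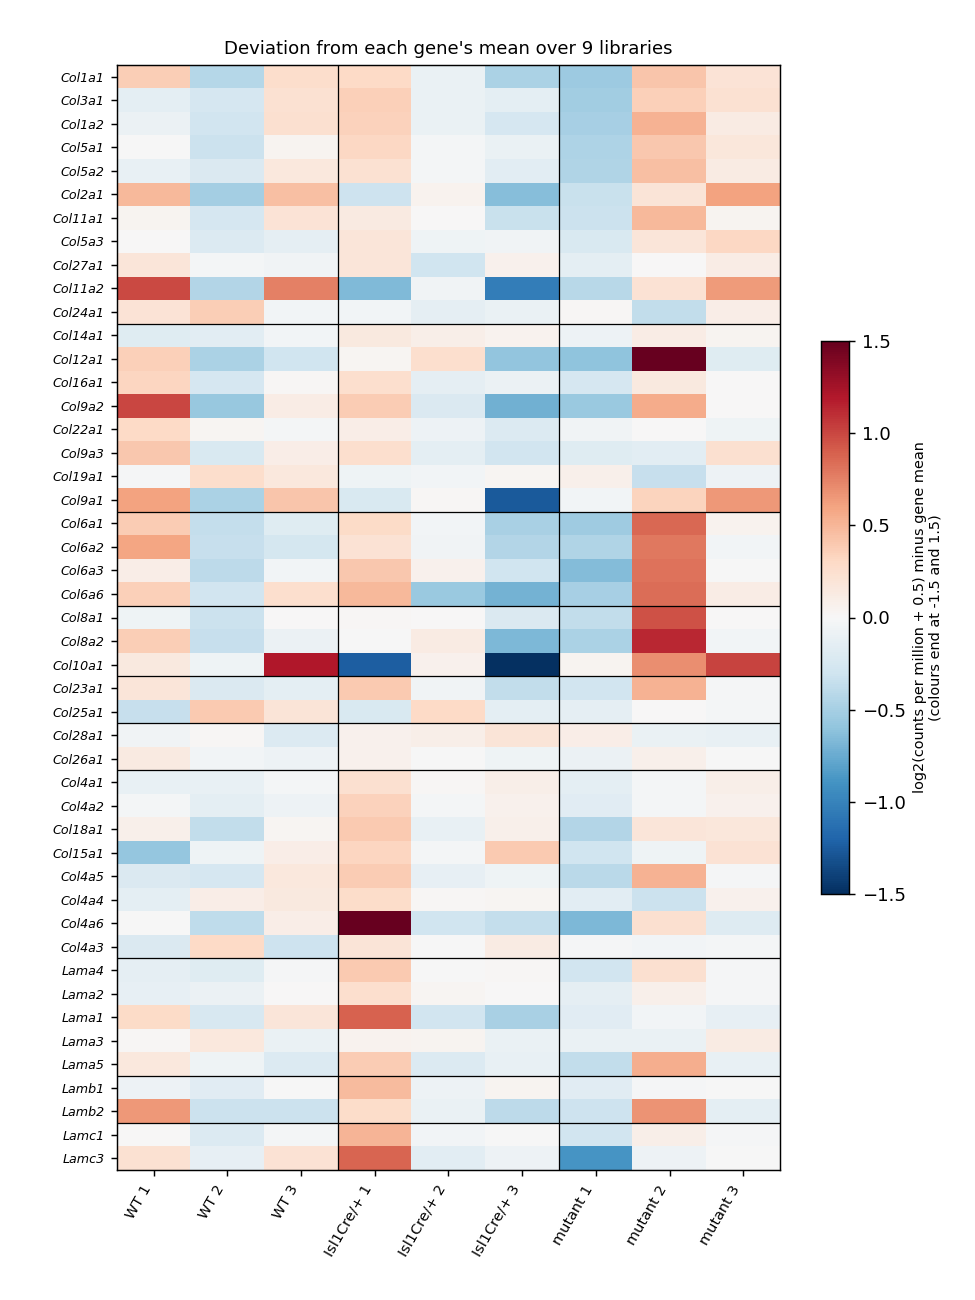
Deviation of tested members in each library from its own mean over 9 libraries, as log2(cpm + 0.5), red above and blue below the mean, with black lines between roles and genotypes. Mutant 2 is red for type VI collagens, Col8a1, Col8a2 and Col12a1, Isl1Cre/+ 1 is red for laminins and Col4a6, and Isl1Cre/+ 1 and 3 are blue for Col10a1 and Col11a2.

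Mutant library 2 stood out for collagens of connective tissue. Col12a1, which links collagen fibrils in sheaths and tendons, was at 373 cpm there, against 86.5 and 116 cpm in the other two mutant libraries, 94.6 to 168 cpm in WT and 86.8 to 157 cpm in Isl1Cre/+. Col8a1, a network-forming collagen of vessel walls, was at 246 cpm against 98.3 to 128 cpm in the other 8 libraries, and its partner Col8a2 at 32.4 against 8.96 to 19.0 cpm. The type VI chains Col6a1, Col6a2 and Col6a3 were at 281, 328 and 253 cpm in this library, and the highest values elsewhere were 200, 286 and 191 cpm. Of 8 markers of meninges and capsule 7 were highest in the same library, Ptgds among them at 1565 cpm against 174 to 763 cpm in the other 8. Of 9 connective tissue markers 6 were, such as Fmod at 174 against 25.6 to 117 cpm, whereas Lum, Scx and Thbs4 were highest in WT library 3, WT library 1 and mutant library 3. All markers of both lists were detected in every library, and their part in the levels of these collagens was not tested.

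Isl1Cre/+ library 1 stood out for basement membranes. Lamc1 was at 784 cpm there against 451 to 589 cpm in the other 8 libraries, Lamb1 at 577 against 368 to 426 cpm, and Lama4, the alpha chain of vessels and nerve sheaths, at 431 against 269 to 388 cpm. Lama1, the alpha chain of early embryonic basement membranes, was at 15.8 cpm against 5.82 to 10.2 cpm, and Lamc3 at 8.34 against 2.11 to 5.12 cpm. Col4a6 was at 7.15 cpm against 1.09 to 2.51 cpm, whereas Col4a5, which lies beside it, was at 20.3 cpm and within the range of the others (11.6 to 22.5 cpm). The summed markers of endothelium and mural cells were also highest in this library, 648 cpm against 395 to 601 cpm, with 7 of the 10 markers highest there, and their part was not tested.

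The question of the experiment was which genes change in the ganglion when Meis2 is removed from its neurons. Mutant and WT ganglia showed no collagen or laminin gene that met the criterion of the study, which asks for a 1.2-fold or greater change with p below 0.05 before adjustment (edgeR, quasi-likelihood). Over all 13200 genes 0.318% met it, 0.0606% higher and 0.258% lower. No member had an unadjusted p under 0.05, and the smallest was 0.125 for Col14a1 (log2 fold change 0.15, SE 0.0895). The DESeq2 Wald test and limma voom also gave 0 members by the criterion. None had an adjusted p under 0.05, which 0.00758% of all genes reached, and for none of the 48 did the 3 mutant and the 3 WT libraries fail to overlap, as they did for 2.76% of all genes.

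The log2 fold changes of the 48 members ran from -0.43 (Lamc3) to 0.64 (Col12a1), with 31 above and 17 below 0 and a median of 0.06, against -0.01 for all genes. With 1 library left out this median ran from -0.07 (without mutant library 2) to 0.21 (without mutant library 1), and it was also below 0 without WT library 2 or mutant library 3. The abundant members were near 0 with wide intervals. Col1a1 was at 1538, 885 and 1427 cpm in WT and at 820, 1593 and 1373 cpm in the mutant, a log2 fold change of -0.02 (95% interval -0.69 to 0.65). Col3a1 gave 0.11 (-0.45 to 0.66) and Col1a2 0.14 (-0.46 to 0.74). Col4a1, at 630, 628 and 669 cpm in WT and 616, 664 and 723 cpm in the mutant, was among the better resolved, with 0.06 (-0.18 to 0.29). Lamb1 gave 0.02 (-0.20 to 0.25), Lamc1 0.01 (-0.28 to 0.31) and Lama2 0.05 (-0.17 to 0.26).

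The interval of 37 of the 48 members lay within 1 log2 unit (2-fold) on either side of 0 in mutant against WT, and that of 13 within 0.5. The half-width of the intervals had a median of 0.51 and ran from 0.21 (Col14a1) to 1.24 (Col12a1). Differences smaller than these widths were not detectable with 3 libraries per genotype.

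The highest log2 fold change and those of the type VI family rested on mutant library 2. With that library left out, Col12a1 changed from 0.64 to -0.26, and the median of the 4 tested type VI family members from 0.20 with 4 of 4 above 0 to -0.22 with 4 of 4 below 0. Without mutant library 1 instead, 3 members met the criterion as higher, Col8a1, Col5a1 and Col5a3, where 0.909% of all genes met it. Without WT library 1 it was met by Col25a1 as lower (1.0% of all genes), and without WT library 2 by Lama1 as lower (0.303%). The criterion was met by no member when mutant library 2, mutant library 3 or WT library 3 was left out.

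Mutant and Isl1Cre/+ ganglia, which share the Isl1Cre allele and differ in Meis2, differed in 1 member by the criterion, Col10a1. Over all genes 1.67% met it, 1.41% higher and 0.265% lower. Adjusted p was under 0.05 for 0 of the 48 members and for 0.00758% of all genes. The 2 groups of libraries did not overlap for 1 member, Col4a3, at 3.34, 2.86 and 3.18 cpm in Isl1Cre/+ and 2.82, 2.77 and 2.79 cpm in the mutant (log2 fold change -0.16, 95% interval -0.56 to 0.23), while 7.65% of all genes were free of overlap. These levels of Col4a3 rest on 80 to 98 and on 68 to 75 counts per library, so counting error alone is wide. Differences of the 48 members had a median of 0.02, with 26 above and 22 below 0, against 0.00 for all genes. The sign of this median turned with single libraries: it was -0.15 without mutant library 2, -0.06 without Isl1Cre/+ library 3, -0.04 without mutant library 3 and -0.01 without Isl1Cre/+ library 2, and 0.18 and 0.15 without Isl1Cre/+ library 1 and mutant library 1. The 4 tested members of the type VI family were all above 0 (median 0.28), and all below 0 without mutant library 2 (median -0.16).

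Col10a1 encodes the network-forming collagen of hypertrophic chondrocytes and lies on the + strand of chromosome 10, chr10:34389981-34397085. It had 9.30, 7.96 and 19.8 cpm in the WT libraries, 3.27, 8.72 and 1.94 cpm in the Isl1Cre/+ libraries and 8.57, 13.9 and 17.4 cpm in the mutant libraries. Isl1Cre/+ libraries 1 and 3 were the lowest of the 9, and Isl1Cre/+ library 2 was within the range of the other genotypes, so the groups overlapped. The log2 fold change was 1.51 for mutant against Isl1Cre/+ (95% interval 0.31 to 2.72, adjusted p = 1, edgeR) and -1.41 for Isl1Cre/+ against WT (-2.74 to -0.08, adjusted p = 1), and 0.10 for mutant against WT (95% interval -0.81 to 1.01). The first 2 of these use the same 3 Isl1Cre/+ libraries. The call in mutant against Isl1Cre/+ was lost without Isl1Cre/+ library 1 (log2 fold change 1.31), without Isl1Cre/+ library 3 (1.15) or without mutant library 3 (1.27), and with the robust quasi-likelihood test (1.51). Col10a1 lies within the gene Nt5dc1 of the opposite strand and shares 18 exonic bases with it, and whether the counting used the strand is not stated. Nt5dc1 itself had 55 to 138 counts in WT, 95 to 105 in Isl1Cre/+ and 62 to 99 in the mutant, without the low values of Col10a1 in Isl1Cre/+ libraries 1 and 3.

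In Isl1Cre/+ against WT ganglia, a comparison that holds Meis2 intact and changes Isl1 and the recombinase, 2 members met the criterion, Col10a1 and Col11a2, both lower in Isl1Cre/+. Over all genes 1.4% met it, 0.258% higher and 1.14% lower, and 0% (0 of 13200) had an adjusted p under 0.05, members included. Col11a2, the alpha-2 chain of cartilage type XI collagen, was at 9.67, 3.29 and 8.17 cpm in WT, at 2.76, 4.47 and 2.01 cpm in Isl1Cre/+ and at 3.35, 5.47 and 7.51 cpm in the mutant. The Isl1Cre/+ range reached above WT library 2, so the groups overlapped. The log2 fold change was -1.18 for Isl1Cre/+ against WT (95% interval -2.19 to -0.17, adjusted p = 1, edgeR) and 0.82 for mutant against Isl1Cre/+ (-0.05 to 1.69). In Isl1Cre/+ against WT the call of Col11a2 was lost without WT library 1, WT library 3, Isl1Cre/+ library 1 or Isl1Cre/+ library 3 (log2 fold changes -1.10 to -0.91). That of Col10a1 was lost without WT library 3 (-0.88), Isl1Cre/+ library 1 (-1.21) or Isl1Cre/+ library 3 (-1.05). In this comparison Col10a1 also missed the criterion in the DESeq2 Wald test (-1.41), and Col11a2 in limma voom (-1.11).

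The 250 bases before the RefSeq start of each of these cartilage collagens (GRCm38.p6) are shown because they were the only members to meet the criterion in any comparison. Capitals mark matches to the TATA motif TATAAA, to the GC motif GGGCGG and to the CCAAT motif, searched on both strands, and no exon of GENCODE M21 lies in either window. The windows are chr10:34389731-34389980 and chr17:34038888-34039137, both on the + strand. GENCODE M21 starts Col10a1 directly after its window but starts Col11a2 further downstream, at chr17:34039437. Motif distances given for Col11a2 therefore hold for the RefSeq start only.
Col10a1: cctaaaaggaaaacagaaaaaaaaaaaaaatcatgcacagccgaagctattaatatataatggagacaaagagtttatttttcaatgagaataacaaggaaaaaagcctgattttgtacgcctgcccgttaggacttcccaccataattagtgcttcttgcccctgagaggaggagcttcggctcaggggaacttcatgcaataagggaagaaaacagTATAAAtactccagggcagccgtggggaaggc
Col11a2: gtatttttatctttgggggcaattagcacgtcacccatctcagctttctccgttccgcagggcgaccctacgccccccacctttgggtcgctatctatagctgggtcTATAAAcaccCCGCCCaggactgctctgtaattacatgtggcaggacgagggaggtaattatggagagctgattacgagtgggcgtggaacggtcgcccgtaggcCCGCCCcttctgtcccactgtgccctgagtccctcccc
Col10a1 has TATAAA with its first base 32 bases before the start and neither of the other 2 motifs. Col11a2 has TATAAA 143 bases before the start and the GC motif on the opposite strand, in capitals as its reverse complement, at 133 and 38 bases, and no CCAAT. The TATA motif on either strand occurred in 12.4% of all 32851 windows and in 5 of the 44 windows of members, and CCAAT in 33.8% and in 14 of 44.

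The other cartilage collagens did not meet the criterion in the main edgeR fits, and they differed among themselves. Col2a1, the main fibrillar collagen of cartilage, was at 76.0, 38.0 and 74.5 cpm in WT, at 43.5, 56.4 and 34.5 cpm in Isl1Cre/+ and at 42.7, 62.0 and 82.9 cpm in the mutant. Its log2 fold change was -0.47 in Isl1Cre/+ against WT (95% interval -1.13 to 0.18) and 0.48 in mutant against Isl1Cre/+ (-0.12 to 1.08). Col9a1 was at 4.29, 1.77 and 3.68 cpm in WT, at 2.18, 2.68 and 0.81 cpm in Isl1Cre/+ and at 2.56, 3.46 and 4.43 cpm in the mutant, giving -0.77 (-1.86 to 0.33) and 0.88 (-0.11 to 1.87). Col9a2 and Col9a3 did not share the low value in Isl1Cre/+ library 1. Col9a2 was at 17.9, 5.70 and 9.38 cpm in the WT libraries, at 11.4, 7.36 and 5.08 cpm in those of Isl1Cre/+ and at 5.71, 13.0 and 8.70 cpm in those of the mutant, giving -0.45 (-1.46 to 0.56) and 0.20 (-0.65 to 1.04). Col9a3, at 8.54, 6.33 and 5.72 cpm in Isl1Cre/+, gave -0.15 (-0.65 to 0.34) and 0.02 (-0.44 to 0.48), and Col11a1 gave -0.06 (-0.41 to 0.30) and 0.16 (-0.33 to 0.64). In mutant against Isl1Cre/+, Col2a1, Col9a1 and Col11a2 met the criterion as higher by the DESeq2 Wald test (1.79% of all genes), without Isl1Cre/+ library 2 (1.73%), without mutant library 1 (3.08%) and without a filter on low counts (3.18%), and Col9a1 also by limma voom (1.17%). In Isl1Cre/+ against WT, Col2a1 and Col9a1 met it as lower without WT library 2 (2.09%), and Col2a1 also without the filter (2.6%). For 22 of the 48 members WT library 2, Isl1Cre/+ library 3 and mutant library 1 were all at once the lowest of their genotypes. These were the 7 cartilage collagens as well as Col1a1, Col1a2, Col3a1, Col6a1 and others. The 3 libraries were chosen with the values known, and the share of all genes with this pattern was not computed. Col2a1, Col9a2 and Col9a3, like Col4a4, Col4a5, Col5a1, Col5a2, Col5a3, Col11a1, Lama3 and Lama5 above, were named after their values were seen.

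Some genes of cartilage and bone that are not collagens were low in the same 2 Isl1Cre/+ libraries, and others were not. Acan, the large proteoglycan of cartilage, was at 7.49, 2.65 and 6.95 cpm in WT, at 2.45, 4.36 and 1.98 cpm in Isl1Cre/+ and at 3.42, 7.91 and 7.76 cpm in the mutant, and it met the criterion as higher in mutant against Isl1Cre/+ (log2 fold change 1.12, 95% interval 0.18 to 2.05). Ibsp, a bone matrix protein, fell by 1.92 on the log2 scale in Isl1Cre/+ against WT (95% interval -3.39 to -0.45), from 24.1, 8.25 and 22.2 cpm to 2.79, 9.58 and 1.91 cpm. Sox9, the transcription factor that drives Col2a1 and Col11a2, was at 3.54 to 4.48 cpm in WT and 3.01 to 3.99 in the mutant. In Isl1Cre/+ libraries 1, 2 and 3 Sox9 was at 2.52, 1.72 and 2.15 cpm. It was thus lowest in library 2, where Col10a1 and Col11a2 were highest of that genotype. Sox9 met the criterion in both comparisons (-0.88 in Isl1Cre/+ against WT and 0.68 in mutant against Isl1Cre/+), and neither pair of groups overlapped. Hapln1 was highest in mutant library 1 (27.4 cpm) and met it as higher in mutant against Isl1Cre/+ (0.40). Matn4 was highest in Isl1Cre/+ library 1 (21.3 cpm) and lowest in mutant library 1 (8.80 cpm), Cnmd stayed between 40.4 and 55.2 cpm, and Alpl, the other tested bone marker, between 36.2 and 41.4 cpm. All 7 tested skeletal muscle markers met it as lower in Isl1Cre/+ against WT (median -2.10) and as higher in mutant against Isl1Cre/+ (median 3.01). Of the 12 cartilage markers 6 were tested, and Cnmd, Hapln1 and Matn4 held 78.3 to 92.1% of their summed level, while the remainder summed to 9.27 to 20.9 cpm in WT, 6.81 to 11 in Isl1Cre/+ and 9.96 to 21.7 in the mutant. Of 9 bone markers 2 were tested, Bglap and Mepe were at 0 in 3 or more libraries, and the part of skeletal tissue in the values of Col10a1 and Col11a2 was not tested.

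**Figure D4:**
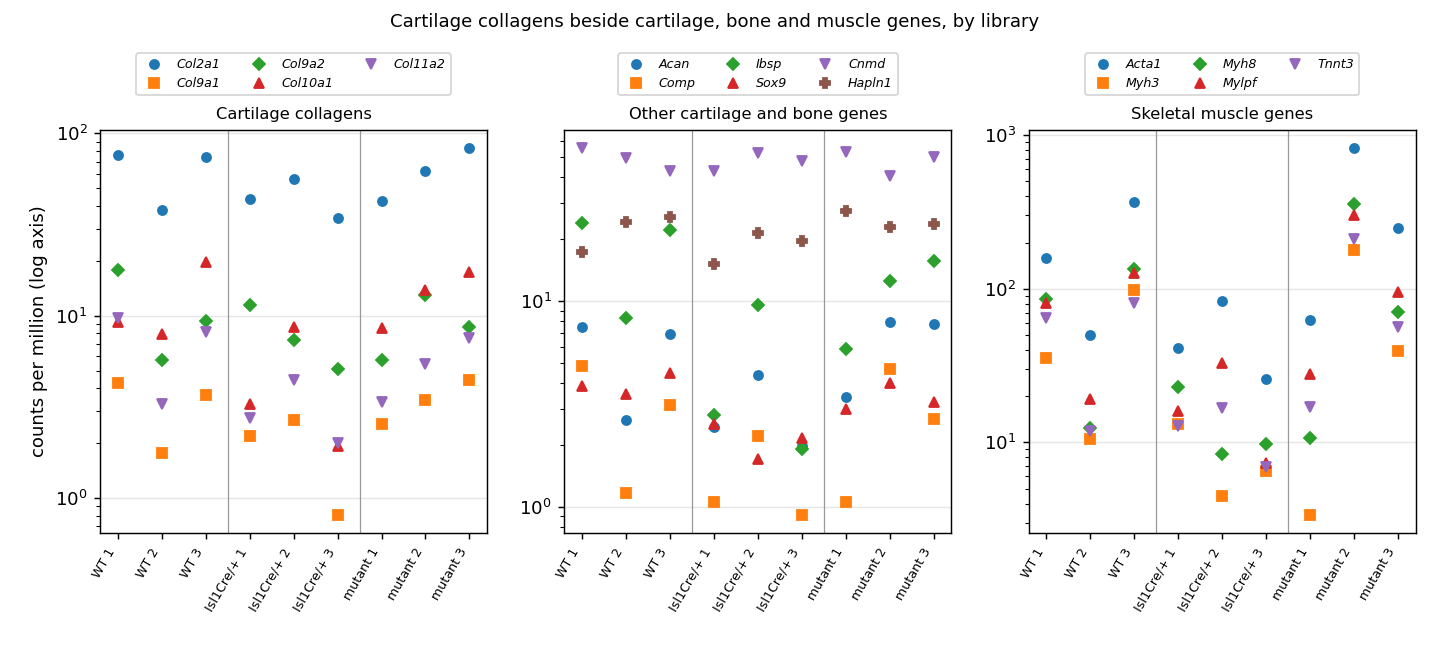
Levels in cpm of 5 cartilage collagens, 6 other cartilage and bone genes and 5 skeletal muscle genes in each of the 9 libraries, on log axes, with 1 symbol per gene. Col10a1 and Col11a2 are low in Isl1Cre/+ 1 and 3, as are Acan, Comp and Ibsp. Comp (1.06 and 0.917 there) is about as low in mutant 1 (1.05) and WT 2 (1.17), and Acan is near its Isl1Cre/+ 1 value (2.45) in WT 2 (2.65). Muscle genes are high in WT 3 and mutant 2, and Cnmd stays between 40.4 and 55.2.

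The 8 basement membrane collagens tested had a median log2 fold change of 0.22 in Isl1Cre/+ against WT and of -0.17 in mutant against Isl1Cre/+, and none met the criterion in the main edgeR fits. Both comparisons use the same 3 Isl1Cre/+ libraries, so the opposite signs are not independent, and Col4a6 was tested only because of its high count in Isl1Cre/+ library 1. Col4a1 was at 803, 687 and 725 cpm in Isl1Cre/+ against 630, 628 and 669 cpm in WT. Its 3 Isl1Cre/+ libraries were all above WT, and the log2 fold change of 0.21 (SE 0.0857, 95% interval 0.01 to 0.41) had an unadjusted p under 0.05 but was under the required fold. Col14a1, at 159, 162 and 175 cpm in WT and 200, 192 and 188 cpm in Isl1Cre/+, likewise had such a p with a log2 fold change of 0.24 (0.06 to 0.42), under the required fold. Lama2, Lama4 and Col28a1 were the other members whose libraries did not overlap, with log2 fold changes of 0.18, 0.27 and 0.20, each with an interval that reached 0. Together these made 5 of 48 members, all higher in Isl1Cre/+, against 5.66% of all genes without overlap. The median of the basement membrane collagens in Isl1Cre/+ against WT was 0.10 without Isl1Cre/+ library 1, with 6 of 8 above 0, and -0.07 in mutant against Isl1Cre/+, with 3 of 8 above 0. Without the same library that of the 5 laminin alpha chains in Isl1Cre/+ against WT changed from 0.10 to -0.05. Without Isl1Cre/+ library 2 instead, Col15a1, Col4a2, Lama4 and Lamb1 met the criterion as higher in Isl1Cre/+ against WT, beside Col10a1 and Col11a2 as lower (1.27% of all genes). Of the 10 markers of endothelium and mural cells 9 were above 0 in Isl1Cre/+ against WT (median 0.26), and Kdr and Pecam1 met the criterion as higher (0.52 and 0.35). In mutant against Isl1Cre/+ 9 of 10 were below 0 (median -0.14), and Kdr met it as lower (-0.37) and the smooth muscle gene Acta2 as higher, at 48.8 cpm in mutant library 2 and at 10.5 to 22.6 cpm in the other 8 libraries. Of the 10 markers of Schwann and satellite glia 8 were above 0 in Isl1Cre/+ against WT (median 0.08) and 8 below 0 in mutant against Isl1Cre/+ (median -0.07), and 0 met the criterion in either. Their summed level ran from 1539 to 2030 cpm in WT, from 1565 to 1876 in Isl1Cre/+ and from 1648 to 1755 in the mutant. The part of endothelium and of glia in the basement membrane levels was not tested.

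**Figure D5:**
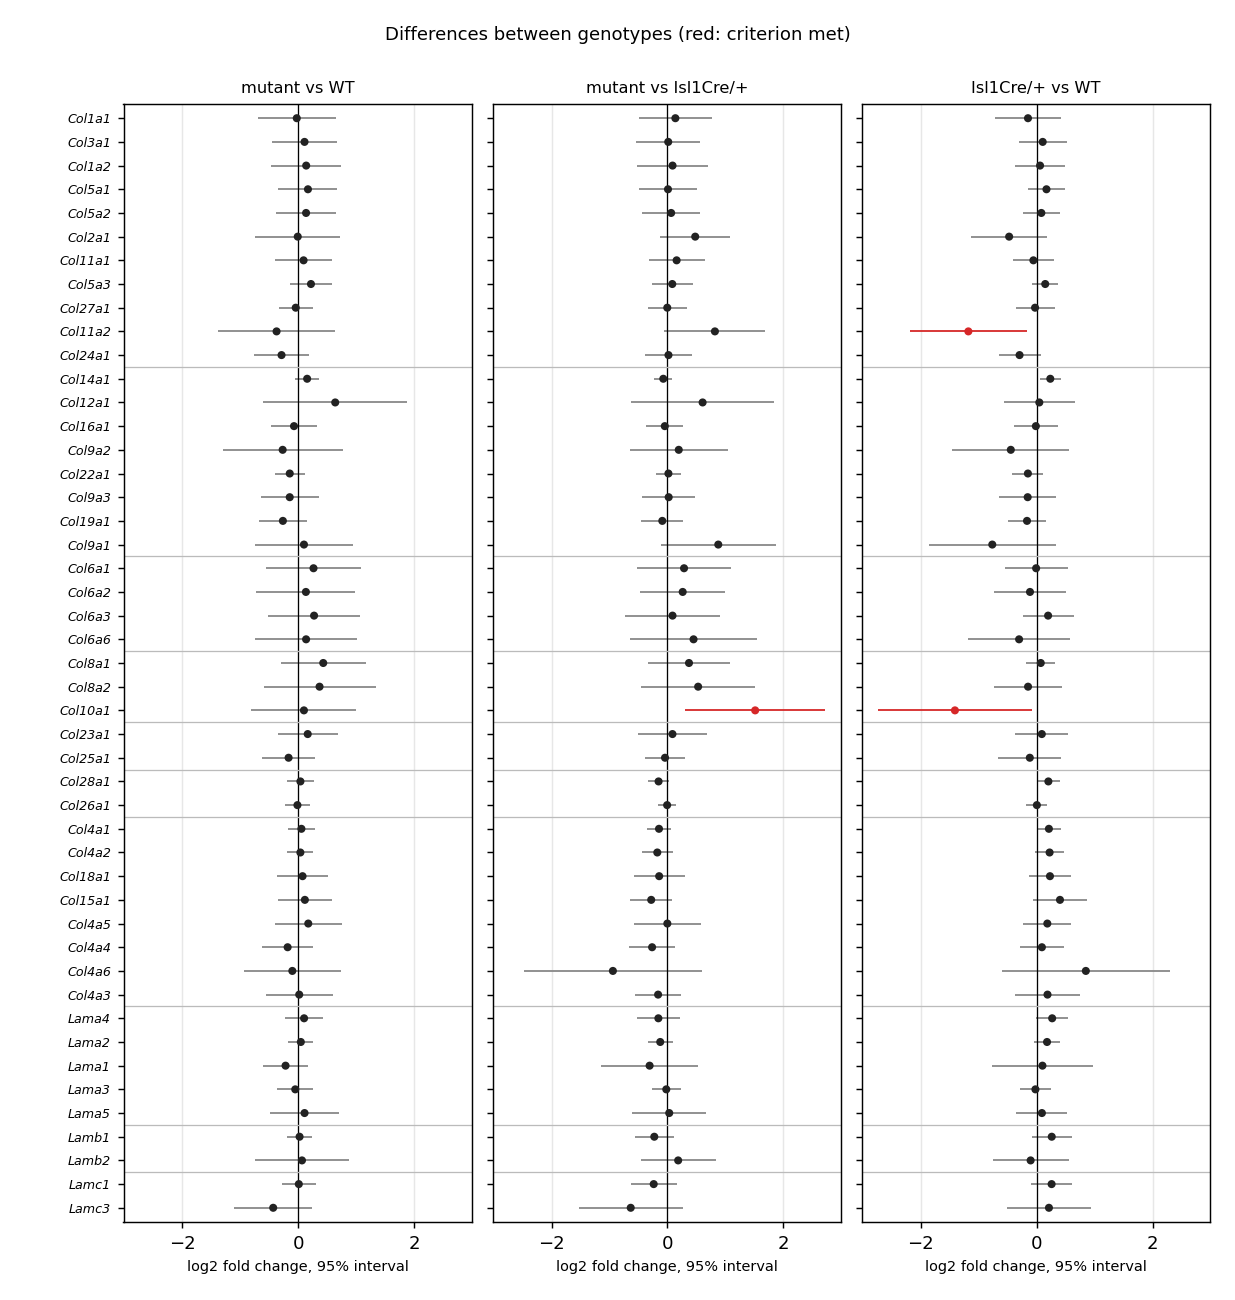
Log2 fold change with its 95% interval for tested members in the 3 comparisons, grouped by role, with members that met the criterion in red. Mutant vs WT has no red row, mutant vs Isl1Cre/+ has Col10a1, and Isl1Cre/+ vs WT has Col10a1 and Col11a2.

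Genes that process or bind collagens and laminins were read beside them, 52 of which were tested: 27 enzymes and chaperones of collagen, 10 partners in basement membranes and 15 receptors. In mutant against WT 0 of the 52 met the criterion, and 0 had an unadjusted p under 0.05 in edgeR. In mutant against Isl1Cre/+ 1 of 52 did, 1.92% against 1.67% of all genes. This was Adgrg6, an adhesion receptor that binds collagen IV and laminin and is required for myelination by Schwann cells, at 103, 88.0 and 106 cpm in Isl1Cre/+ and 75.7, 79.9 and 85.4 cpm in the mutant. Its log2 fold change was -0.30 (SE 0.0863, adjusted p = 1, edgeR), the 2 groups did not overlap (3 of the 52, against 7.65% of all genes), and against WT (62.5, 84.1 and 88.9 cpm) the mutant gave 0.03 (95% interval -0.29 to 0.36). In Isl1Cre/+ against WT 1 of 52 did, 1.92% against 1.4% of all genes: Nid1, the nidogen that bridges laminin and collagen IV, rose by 0.30 (SE 0.118), from 459, 471 and 522 cpm to 676, 512 and 585 cpm, with overlap. The 27 collagen-processing genes had 0 calls in each comparison, with medians of 0.10, 0.07 and 0.01 in mutant against WT, mutant against Isl1Cre/+ and Isl1Cre/+ against WT.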

How the data were processed

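Whole DRG RNA from 9 E18.5 libraries was poly(A)-selected and sequenced single-end from CORALL libraries carrying unique molecular identifiers. Per the study's methods, the authors removed duplicates by these identifiers, aligned reads with STAR 2.7.10 to mm10 and counted them with HTSeq 0.6. The annotation release and the strand setting are not given in the sources used here. The deposited values used here are raw read counts per gene. The table also holds 18 columns of the authors' own comparisons (fold changes, t, p and adjusted p), which were not used.

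Genes that reached 100 counts in 1 or more libraries entered pairwise fits with edgeR 4.0.16 (TMM scaling, quasi-likelihood test, R 4.3.3), and adjusted p-values are Benjamini-Hochberg over all 13200 genes. Intervals are 95% and two-sided. The cpm values are TMM-scaled, and 0.5 cpm was added for ratios of highest to lowest library. DESeq2 1.42.0 and limma 3.58.1 served as alternatives. The fits were tested on simulated data, with changes placed in well-covered genes only. The simulation gave all genes the same dispersion and held no outlying library. It therefore does not cover members of few counts or the spread between the libraries here. Library totals of 23854607 to 29103444 set the precision, which is lowest for members of few counts. Named members were those meeting the criterion, the 3 highest per role, the 5 most variable and those next to the limit of 100 counts. Members, marker lists and lists of related genes were chosen with earlier results of these data known. Values of 1 member are not reported here.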

Additional observations from a re-analysis of the deposited data

How the results depend on the processing

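The count of members meeting the criterion was 0 in mutant against WT, 1 in mutant against Isl1Cre/+ and 2 in Isl1Cre/+ against WT. With 1 library left out at a time it ran from 0 to 3, from 0 to 5 and from 0 to 6, while the share of all genes ran from 0.303 to 1.0%, from 1.27 to 3.08% and from 0.773 to 2.58%. In mutant against Isl1Cre/+ it was 7 without a filter on low counts (3.18% of all genes then), 0 with at least 100 counts in every library (Col10a1 is then not tested), 4 by the DESeq2 Wald test (1.79%), 2 by limma voom (1.17%), 0 by the robust quasi-likelihood test and 0 by adjusted p. In Isl1Cre/+ against WT it was 7 without the filter (2.6%), 0 with at least 100 counts in every library (Col10a1 and Col11a2 are then not tested), 1 by limma voom (1.06%), 2 by the DESeq2 Wald test (Col11a2 and Lama4, without Col10a1, 1.51%), 4 with no fold change requirement (236 of 13200 genes) and 0 by adjusted p. Without WT library 1, Isl1Cre/+ library 1 and mutant library 2, a setting chosen after seeing the data, the counts were 1, 1 and 1 (1.38, 1.29 and 2.3% of all genes). The members were Col25a1, Col10a1 and Col6a6, so the calls of Col10a1 and Col11a2 in Isl1Cre/+ against WT were both lost. The cause of these differences was not tested.

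Of 90 values of named members that did not meet the criterion, 62 changed sign under at least 1 alternative. The replicate numbers did not pair the libraries: correlations of same-numbered libraries ran from -0.57 to 0.39, and 6 of 18 matched best with their own number. With the replicate block the counts of members were 0, 1 and 3, and those of all genes 31, 177 and 236 instead of 42, 221 and 185. With 3 libraries per genotype, 37, 34 and 41 of the 48 intervals in the 3 comparisons lay within 2-fold either way of no change.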
